A study of Zea mays with 9 samples.

Results

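The maize line ae wx was set against the inbred line B73 in endosperm of kernels taken 15 days after pollination. All probe sets of the array other than its 113 controls were taken, which is 17621 of 17734, on 3 arrays of ae wx and 3 of B73. Each probe set condenses several short probes for a transcript into 1 intensity, its signal. Of these, 12414 were bright enough to be tested, and 741 named genes stood among them. The ae wx line is an inbred named for the recessive starch loci amylose extender and waxy, and B73 is the inbred of the maize reference genome. No allele, recurrent parent or number of kernels or ears per sample was given. Therefore an effect of the named loci cannot be told apart from other differences between the inbreds. Both lines grew in the same field, and kernels came from the middle of the ear. The labels call the 3 replicates biological without naming separate ears, so p-values measure the spread between these samples. The series holds 9 arrays in all, and the other 3, of the inbred sh1, entered the estimate of the spread and serve as a further line to read levels against.

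Endosperm makes starch from sucrose that arrives from the mother plant. ADP-glucose pyrophosphorylase makes ADP-glucose, and a carrier brings it into the amyloplast. Starch synthases, branching enzymes and debranching enzymes build amylopectin from it, while granule-bound starch synthase builds amylose. The locus ae encodes branching enzyme IIb and the locus wx the granule-bound synthase. Kernels that lack both are known for starch with almost no amylose and with long, sparsely branched amylopectin chains. The same cells fill with zeins, storage proteins that are made on the rough endoplasmic reticulum (ER) and whose genes are driven by the bZIP factor Opaque2 and the prolamin-box binding factor.

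Before the comparison, several properties of the arrays bear on it. Replicates of ae wx were closer to each other than those of B73, with a median SD over probe sets of 0.0712 in ae wx and 0.176 in B73 on the log2 scale. Of the B73 arrays, replicate 3 lay nearest to ae wx. Its mean absolute log2 difference from the ae wx arrays was 0.49 to 0.50, against 0.54 to 0.63 for the other B73 arrays. There were 1588 probe sets called with a difference of at least 2-fold, a call that used replicate 3 itself. Among them it stood on the ae wx side of the mean of the other B73 arrays for 1085 (68.3%). It stood closer to the ae wx mean than to that mean for 160 (10.1%). Control genes read at both transcript ends give a 3′/5′ ratio that bears on RNA quality. This ratio was higher in ae wx by 0.40 for actin, 0.36 for EF1a, 0.22 for ubiquitin and 0.090 for GAPDH on the log2 scale. For cyclophilin the difference was −0.34, and the part of these ratios in the results was not tested. Polyadenylated spikes, which are added to the RNA before labelling, read 719 to 783 in ae wx and 1007 to 1258 in B73. With arrays scaled to these spikes, an alternative added after the data were seen, the median difference of all probe sets was 0.59 on the log2 scale, against 0.038 for the signals as deposited. Every direction below is therefore relative to the array as a whole, and the counts of a gene list under this spike scaling are given where they turn round.

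In the fit used throughout, a majority of the probe sets tested was called different between the lines, most of them by little. That majority was lost in some alternatives. Calls were 5737 with an array weight per line, 5903 with the 6 arrays compared alone and 6205 with the replicate block. In the fit used throughout, of 12414 probe sets 3604 (29.0%) were higher in ae wx and 3020 (24.3%) were lower, at an adjusted p under 0.05 in limma. A difference of at least 2-fold was added to the call for 909 higher (7.32%) and 679 lower (5.47%). As deposited, 54.4% of calls were higher, and with the spike scaling 91.7% were. The median absolute difference was 0.329 (log2), and 37 probe sets were higher and 29 lower by at least 16-fold. The arrays of the lines did not overlap for 7465 (60.1%). Among the named genes, 425 (57.4%) were called, 66 (8.91%) higher and 48 (6.48%) lower by at least 2-fold. In all, 241 (32.5%) were higher and 184 (24.8%) lower. These are the shares to hold each gene list against. Values below are signals per array in the order of replicates 1, 2 and 3. Differences are ae wx minus B73 on the log2(signal + 16) scale with their standard errors, n = 3 arrays a line. This scale understates the change of low genes.

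**Figure D1:**
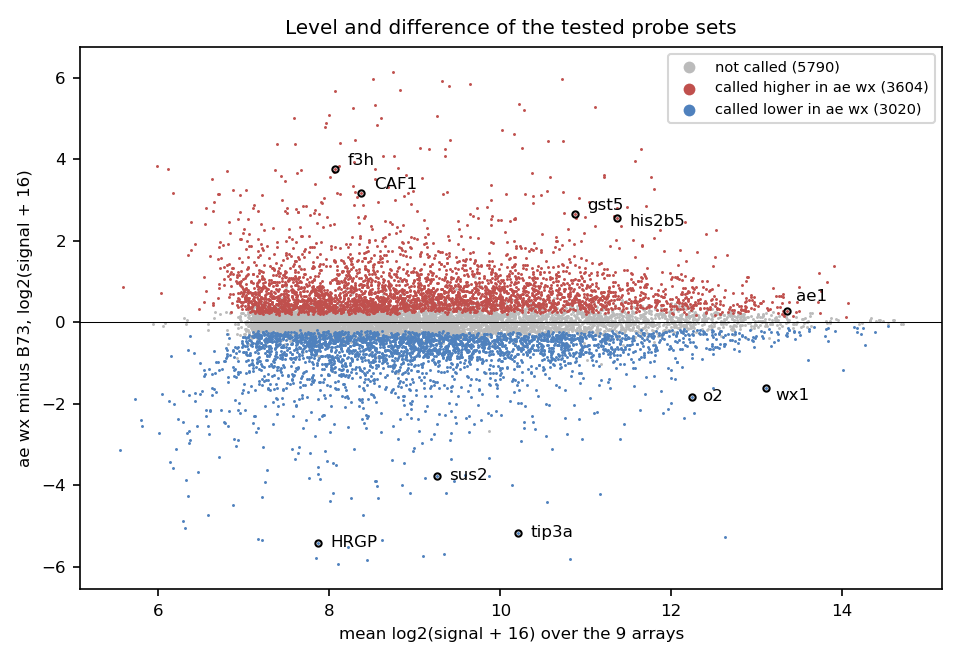
Each point is 1 of the 12414 tested probe sets, with its mean level over the 9 arrays on the horizontal axis and the difference ae wx minus B73 on the vertical axis, both on the log2(signal + 16) scale. Called differences (3604 higher, 3020 lower) lie at all levels, o2 and wx1 are the bright lower genes marked, and HRGP and tip3a lie lowest of those marked.

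The comparison covers named genes of the pathway from sucrose to starch, and among them the 2 genes of the line name went different ways. The gene wx1 read 4156, 5666 and 4392 in ae wx and 15122, 13907 and 13913 in B73 (−1.60 ± 0.10, adjusted p = 1.14e-06). The gene ae1 read 11774, 12085 and 11728 in ae wx and 10412, 8974 and 9995 in B73 (0.28 ± 0.062, adjusted p = 0.00396). Since no allele is named, a level of ae1 transcript does not check the label. Of 14 starch genes tested of 17 listed, 9 were higher, 2 lower and 3 not called. Their median difference was 0.27 against 0.053 for all named genes. Of the endosperm ADP-glucose pyrophosphorylase, the small subunit gene and 1 of the 2 probe sets of the large subunit gene were higher. The large subunit gene sh2 read 15147, 15669 and 14649 in ae wx and 12983, 12610.1 and 13381 in B73 (0.22 ± 0.044) with its brighter probe set. The other differed by −0.046 ± 0.10 and was not called. The small subunit gene bt2 read 11467, 11782 and 11117 in ae wx and 9352, 8922 and 10316 in B73 (0.27 ± 0.060). The amyloplast ADP-glucose carrier bt1 read 13502, 14134 and 13414 in ae wx and 9189, 8402 and 11768 in B73 (0.50 ± 0.10). For bt2, bt1 and the brighter probe set of sh2 the arrays of the lines did not overlap. Among enzymes that build the chains, starch synthase I (ss1) differed by 0.32 ± 0.075 and starch branching enzyme I (sbe1) by 0.81 ± 0.11. The signals of sbe1 were 8562, 9288 and 8983 in ae wx, against 6074, 4720.3 and 4645 in B73, the largest positive difference of the list. The other lower gene was zpu1, a pullulanase-type debranching enzyme, at 717, 933 and 740.1 in ae wx, against 3137, 2868 and 1412 in B73 (−1.54 ± 0.26). Here B73 replicate 3 stood between the lines. The starch synthase IIa gene su2 was not called (4492, 3552 and 2771 in ae wx and 1225, 2973 and 4371 in B73, adjusted p = 0.303), and the arrays of the lines overlapped.

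Upstream, the sucrose synthase gene sus2 was much lower, with 182, 160.5 and 199 in ae wx, against 3351, 2736 and 2010.0 in B73 (−3.76 ± 0.21, adjusted p = 3.43e-07). Another sucrose synthase gene, sh1, bright in endosperm, read 15910.0, 16149 and 15899.7 in ae wx and 18139, 16902 and 17372 in B73 (−0.13 ± 0.064, adjusted p = 0.119) and was not called with its brightest probe set. Its other probe sets gave −0.18 ± 0.077, not called, and −0.67 ± 0.13, which was called lower. The sh1 line read 429.6 ± 109.9 (SD) for sus2, lower than B73 as well and higher than ae wx (ae wx minus sh1 −1.16 ± 0.21, adjusted p = 0.00165). The sucrose transporter gene sut1 was higher (824, 749 and 735 in ae wx and 544, 507 and 565 in B73, 0.50 ± 0.086). So was the fructokinase gene frk2 (3817, 3336 and 3443 in ae wx and 2149, 2371 and 2547 in B73, 0.58 ± 0.10). Of the 10 genes of sucrose and hexose use, 4 were higher and 2 lower, and without any 1 of the ae wx arrays 2 were higher.

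Glycolysis and fermentation genes leaned to higher, with 9 higher and 1 lower of 16 tested. With quantile normalization or without ae wx replicate 2 the counts were 6 higher and 1 lower. Without B73 replicate 3 they were 11 higher and 1 lower. The pyruvate decarboxylase genes, which open ethanol fermentation, differed in direction. The gene pdc1 was higher, at 5885, 6236 and 5777 in ae wx, against 2489, 1989 and 3901 in B73 (1.15 ± 0.19). The gene pdc3 was higher too, at 3774, 3787 and 4049.5 in ae wx, against 1699, 1485 and 1824 in B73 (1.21 ± 0.10). By contrast pdc2 was lower, at 567, 531 and 663 in ae wx, against 5219, 4261 and 3775 in B73 (−2.87 ± 0.14), with all 4 of its probe sets called lower. The alcohol dehydrogenase gene adh2 was 2.69-fold higher (830.0, 852 and 769 in ae wx, against 281, 280.2 and 321 in B73, 1.43 ± 0.10). The brighter adh1 differed by 0.29 ± 0.054. In the sh1 line pdc1, pdc3 and adh2 read 5895 ± 240.3, 3944 ± 295 and 965 ± 93.4 (SD). There ae wx minus sh1 was 0.017 ± 0.19, −0.025 ± 0.10 and −0.23 ± 0.10, not called. These standard errors hold the spread of the B73 arrays too, so equal levels are not shown.

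Most listed zein genes were lower, and the reading of their regulator o2 was one that depended on the probe set. The brighter probe set of o2, the Opaque2 gene, read 2063, 2187 and 1902 in ae wx, against 7911, 6629.8 and 7638 in B73 (−1.84 ± 0.089, adjusted p = 1.44e-07). The sh1 line read 7428 ± 439 there (SD). The other o2 probe set read 3636, 4019 and 3930.0 in ae wx and 4961, 3628 and 4635 in B73 (−0.18 ± 0.14, adjusted p = 0.297) and was not called. A 3.58-fold lower signal was seen with 1 of its 2 probe sets. Its partner factors were not called lower. The gene pbf1, the prolamin-box binding factor, read 3355, 3256 and 3267 in ae wx and 3455, 3349.7 and 4131 in B73 (−0.14 ± 0.10, adjusted p = 0.28), with no call. The gene ohp1 differed by 0.12 ± 0.090 (adjusted p = 0.307), and ohp2, like it an Opaque2 heterodimerizing protein, was higher by 0.45 ± 0.10. In the list, 5 of 14 tested endosperm regulators were lower, o2 among them, and 2 higher (8 higher and 1 lower with the spike scaling).

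Zein genes outside the zein list were not counted. The named gene tgz15, which that list does not hold, had all 4 of its probe sets called lower. All 8 zein genes in the list were tested, with 5 lower, 1 higher and 2 not called (5 higher and 2 lower with the spike scaling). These genes belong to near-identical families, so probe sets may read several copies and sequence differences between the inbreds as well as abundance. The alpha zein az22z5 was lower, at 4009, 3618 and 3514 in ae wx, against 11763, 12158 and 10120.1 in B73 (−1.61 ± 0.12). Another alpha zein, az22z1, was higher, at 18578, 18867 and 18378 in ae wx, against 11749, 11508 and 11264 in B73 (0.69 ± 0.11). The alpha zein az19D1 was lower, at 8786, 8099 and 7816 in ae wx, against 15068, 15593 and 16382 in B73 (−0.93 ± 0.057). The delta zein dzs18 was lower with every probe set, with differences of −0.55, −1.17, −1.52 and −5.28. The size of its difference therefore lay between 1.46-fold and 38.8-fold by probe set. Smaller differences were those of azs22-20 (−0.23 ± 0.054, and 0.32 with the spike scaling) and the gamma zein gz50 (−0.12 ± 0.041, and 0.43 with the spike scaling). The call of gz50 ended without B73 replicate 2, ae wx replicate 2 or ae wx replicate 3. The alpha zein az22z3 and the gamma zein gz27 differed by 0.052 ± 0.034 and 0.057 ± 0.031 and were not called. They ranked 10 and 7 by mean signal of all probe sets, at 22856 and 21968 for gz27 in ae wx and B73, where the highest signal on these arrays was 28369.5.

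Among genes of ER chaperones, folding enzymes and derlins, the lectin chaperones, bip1 and the derlins were lower, while disulfide isomerases differed in direction. Of the 18 listed genes, all tested, 8 were lower and 3 higher, against 24.8% lower among named genes. With the spike scaling 8 were higher and 3 lower. The lectin chaperones, which hold glycoproteins during folding, were both lower. Calnexin (CNX) read 1814, 1912 and 1987 in ae wx and 4105, 3454 and 3221 in B73 (−0.90 ± 0.12, adjusted p = 0.000169). Calreticulin (crt2) read 2268, 2214 and 2302 in ae wx and 4276, 3725 and 3822 in B73 (−0.79 ± 0.10). The Hsp70 of the ER lumen, bip1, read 2833, 3116 and 3067 in ae wx and 5034, 4666 and 4405 in B73 (−0.64 ± 0.094). The gene bip2 was not called (−0.31 ± 0.12, adjusted p = 0.0513). For the lower genes named so far no ae wx array reached a B73 array. Derlins, which take part in the removal of misfolded proteins from the ER, were lower in all 3 genes tested, with differences of −0.85 ± 0.16 for derlin1, −0.84 ± 0.12 for der4 and −0.68 ± 0.11 for der2. Protein disulfide isomerases differed among themselves. The gene pdi8 was lower, at 857, 878 and 810.5 in ae wx, against 1889.7, 1522 and 1514 in B73 (−0.93 ± 0.17). The bright gene pdi was lower, at 7852, 7947 and 8262 in ae wx, against 11024, 10135 and 11352 in B73 (−0.43 ± 0.058, and 0.12 with the spike scaling). Higher was pdi7, at 2833, 2774 and 2750.1 in ae wx, against 1627, 1575 and 2239.9 in B73 (0.63 ± 0.13). The dimmer pdi5 was higher as well, at 318, 308 and 321 in ae wx, against 95.4, 80.3 and 102 in B73 (1.62 ± 0.11). CNX, crt2 and bip1 were also below the sh1 line, where CNX read 3742 ± 492, crt2 3978 ± 458 and bip1 6016 ± 667 (SD). There ae wx minus sh1 was −0.96 ± 0.12 for CNX (adjusted p = 0.000178) and −0.99 ± 0.094 for bip1 (adjusted p = 2.67e-05).

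**Figure D2:**
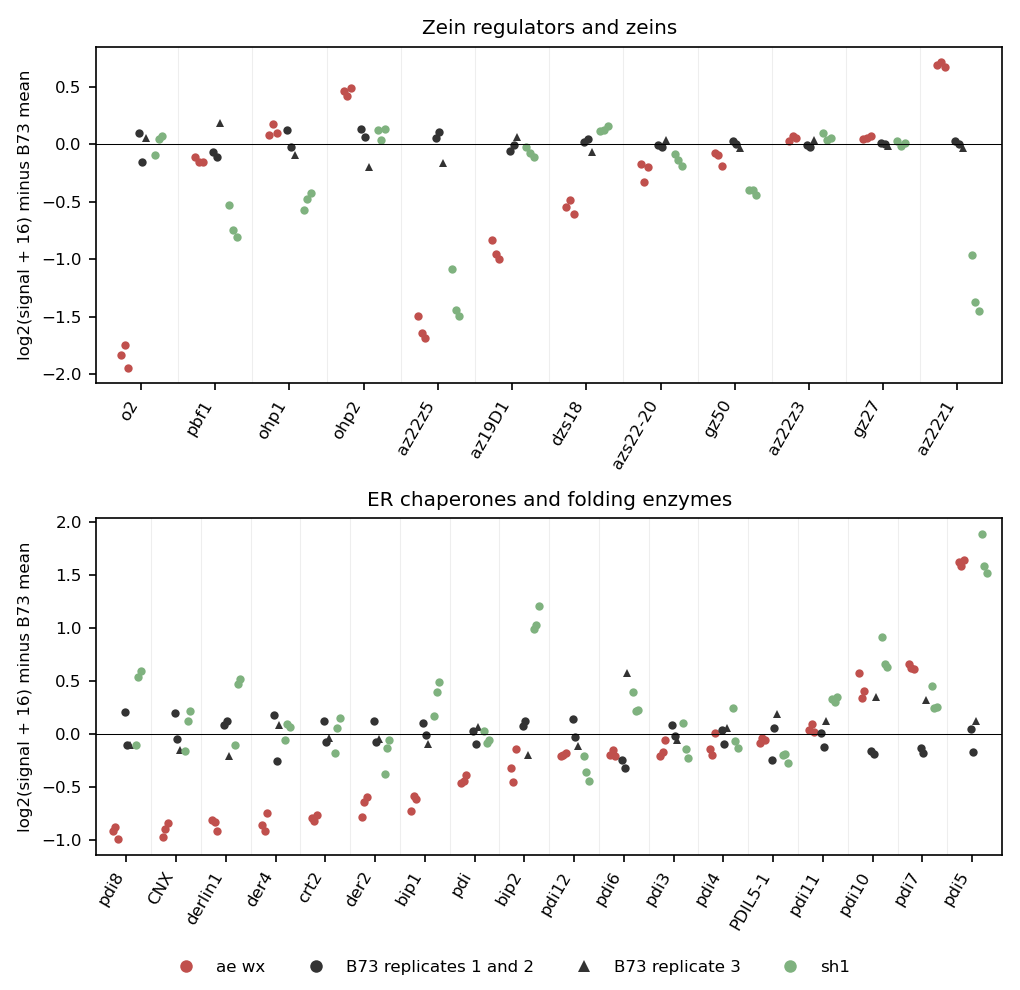
Every array of zein regulators and zeins (top) and of ER folding genes (bottom), as log2(signal + 16) minus the B73 mean of the gene, with ae wx left, B73 in the middle and sh1 right. In ae wx the 8 lower ER genes from pdi8 to pdi lie below all B73 arrays, while o2 (brighter probe set), az22z5 and az19D1 lie low and az22z1 and pdi5 high.

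Glutathione S-transferases, which join glutathione to reactive compounds, were mostly higher in ae wx. Of 20 tested, with 12 more too dim, 13 were higher and 2 lower, with a median of 0.43. Without ae wx replicate 1 the counts were 8 higher and 2 lower, and with a stricter filter on low signal (50% of the trimmed mean) 7 higher and 2 lower. The gene gst18 read 247, 246 and 234 in ae wx, against 5.82, 5.33 and 8.78 in B73. No B73 array exceeded the controls with no maize target there, so no fold is given. The gene gst5 read 3649, 3469 and 3718 in ae wx, against 413, 495 and 839 in B73 (2.66 ± 0.22, adjusted p = 8.05e-06), and every ae wx array stood above every B73 array. The gene gst31 read 1594, 1646 and 2139 in ae wx and 738, 957 and 898 in B73 (1.03 ± 0.14, with 2 of its 4 probe sets called higher and the others not called), and the dimmer gst37 read 472, 404 and 371 in ae wx and 173, 263 and 165 in B73 (1.01 ± 0.16). Smaller differences were those of gst3a (0.82 ± 0.12), gst23 (0.69 ± 0.084) and GST38 (0.60 ± 0.10). The 2 lower genes were gst6 and gst42. The gene gst6 read 325, 257 and 306 in ae wx, against 639.7, 688 and 667 in B73 (−1.13 ± 0.10). The gene gst42 read 52.6, 53.6 and 41.5 in ae wx, against 227, 282 and 186 in B73, with 1 ae wx array above the controls. The sh1 line did not follow one direction in the family: it read 3177 ± 518 for gst5, 136 ± 11.6 for gst37 and 2360.1 ± 927 for gst42 (SD).

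Aquaporins differed in both directions, also within subfamilies. Of 20 tested, 8 were higher and 7 lower. Leaving out B73 replicate 1 or 2 or any 1 ae wx array gave 4 or 5 higher and 7 lower. Several water channels of the plasma membrane were higher. PIP1-1 read 724, 644 and 681 in ae wx and 259.9, 312 and 304 in B73 (1.19 ± 0.13). The gene pip2b read 1371, 1442 and 1526 in ae wx and 672, 598 and 679 in B73 (1.14 ± 0.090), and the brighter pip2c read 3442, 3627 and 3353 in ae wx and 2084, 1922 and 1969 in B73 (0.80 ± 0.073). Lower in that subfamily was pip2-5, at 153, 127 and 139 in ae wx, against 256, 237 and 306 in B73 (−0.86 ± 0.12). The second probe set of pip2c gave −0.16, not called. The tonoplast channels sit in the vacuolar membrane, and tip3 genes are known from seeds. The gene tip3a read 195, 163 and 175 in ae wx, against 11622, 12089 and 2378 in B73 (−5.17 ± 0.51, adjusted p = 2.45e-05). The gene tip3b read 47.6, 44.7 and 42.4 in ae wx, against 1629.9, 2141 and 161 in B73, with 1 ae wx array of tip3b above the controls. B73 replicate 3 stood far below the other B73 arrays for both, and still above ae wx. Among the other tonoplast genes tip4d was lower (236, 183 and 244 in ae wx and 421, 587 and 543 in B73, −1.17 ± 0.15). The gene tip2a was higher (707, 657 and 593 in ae wx and 419.8, 457 and 513 in B73, 0.48 ± 0.11), and tip1 and tip5 were not called (−0.20 ± 0.15 and −0.035 ± 0.10). Of other subfamilies nip3a (−0.72 ± 0.16), nip1a (−0.66 ± 0.12) and SIP1-1 (2762, 2657 and 2545 in ae wx and 3809.9, 4285 and 4100.1 in B73, −0.61 ± 0.077) were lower.

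**Figure D3:**
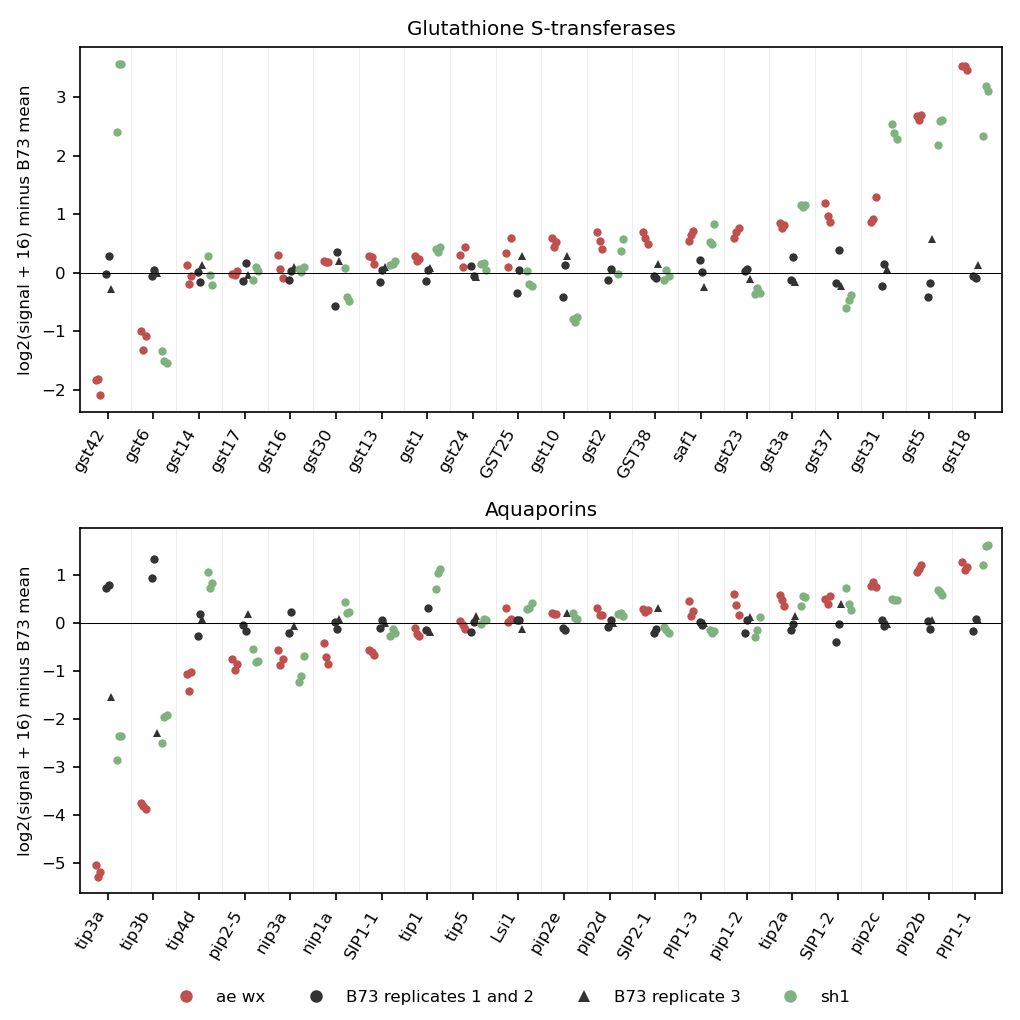
Every tested glutathione S-transferase gene (top) and aquaporin gene (bottom) on every array, as log2(signal + 16) minus the B73 mean, ordered by ae wx minus B73, with ae wx left, B73 in the middle and sh1 right and a triangle for B73 replicate 3. Glutathione S-transferases rise above 0 on the right of their panel with few exceptions, while the aquaporins run from tip3a and tip3b far below 0 to 3 PIP genes above it.

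Markers of some other kernel compartments differed between the lines as well. The 8 tested markers of the basal transfer layer, which takes up sugar at the base of the endosperm, had 6 higher and 0 lower (2 higher when each line had its own array weight). In such bulk RNA a change in the number of cells of a type and a change in RNA per cell cannot be told apart. Much of this signal came from 1 array, since meg2 read 2085, 362 and 383 in ae wx, against 117, 144 and 81.6 in B73 (2.42 ± 0.60, and 1.61 without ae wx replicate 1). The gene bap2 read 1080.2, 264 and 254 in ae wx, against 90.1, 89.4 and 40.9 in B73, with 2 of the B73 arrays above the controls. The gene betl1 was more even, at 952, 792 and 711 in ae wx, against 503, 460.2 and 562 in B73 (0.66 ± 0.16). So was meg6, at 2664, 2657 and 2809.6 in ae wx, against 1724, 1844 and 2350.2 in B73 (0.47 ± 0.11). Of a separate set of 9 marker genes of that layer, which overlaps the list only in part, 6 exceeded controls on every ae wx array and 4 on every B73 array. Their summed signal was 4433 to 7573 in ae wx and 2786 to 3332 in B73. Some embryo markers went the other way. The embryo globulin gene glb1 read 457, 416 and 465 in ae wx, against 3183, 3111 and 1745 in B73 (−2.50 ± 0.30, adjusted p = 0.000101). The oil-body gene ole1 was lower (−0.32 ± 0.090, and 0.22 with the spike scaling). The embryo regulator gene vp1 read 205, 197 and 200.3 in ae wx and 211, 246 and 153 in B73 and was not called (adjusted p = 0.98), while its other probe set was higher by 0.19 ± 0.071. The sum over 6 embryo markers was 7559 to 8145 in ae wx and 9989.5 to 14108 in B73, with B73 replicate 3 the lowest of B73. Most of this sum came from ole1 on every array, so it does not stand for the 6 markers alike. Of the others, glb2 exceeded the controls on 2 ae wx arrays and lec1 on 1. Of 13 embryo and aleurone genes tested 6 were lower and 1 higher (6 higher and 3 lower with the spike scaling). The 13 starchy endosperm markers were above controls on all arrays of both lines and summed to 153443 to 159127 in ae wx and 182912 to 186058 in B73. Members of this sum went both ways, so it does not measure the share of that tissue. Among the lower were wx1, a gene of the line name, and the brighter probe set of o2. Among the higher were az22z1, sh2 and bt2. The green tissue sums overlapped, at 12019 to 12160.0 in ae wx and 10809 to 12089.6 in B73, most of it from ppdk1. Sums of 3 aleurone markers overlapped too, at 2889 to 3358 in ae wx and 2915 to 3179 in B73. For 2 markers of the embryo surrounding region the sums were 219 to 440 in ae wx and 185 to 210 in B73. The 1 pericarp marker read 283 to 314 in ae wx and 244 to 276 in B73. The part of these compartments in the differences of other genes was not tested.

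Genes of DNA replication and division were mostly higher in ae wx, with B73 replicate 3 nearest to it in several. Of 19 cell cycle and histone genes, 11 were higher and 3 lower, with a median of 0.45. Without B73 replicate 3 the counts were 11 higher and 3 lower, and with the stricter filter 6 higher and 2 lower. The histone H2B gene his2b5 read 4468, 4541 and 4846 in ae wx, against 378, 648 and 1793 in B73 (2.57 ± 0.42, adjusted p = 0.000637). The replication clamp gene pcna2 read 1499, 1515 and 1585 in ae wx, against 344, 465 and 1105 in B73 (1.42 ± 0.32). MCM7 of the replicative helicase read 145, 167 and 129.5 in ae wx, against 30.4, 47.9 and 112 in B73, where 2 of the B73 arrays exceeded the controls. For these genes B73 replicate 3 lay above the other B73 arrays and below ae wx. The cyclin-dependent kinase gene cdc2 had more even B73 arrays, at 1051, 1029 and 1005 in ae wx, against 723, 712 and 774 in B73 (0.47 ± 0.080), and 0.18 ± 0.084, not called, with its other probe set. So had the cyclin gene cyc3, at 198, 177 and 179 in ae wx, against 115, 121 and 131 in B73 (0.54 ± 0.087). The kinase gene wee1, an inhibitor of mitosis, read 264, 244 and 273 in ae wx and 115, 111 and 169 in B73 (0.92 ± 0.14). The checkpoint gene mad2 was higher too (0.45 ± 0.11). Kinesin genes, motors on microtubules, were also higher, kin4 by 1.12 ± 0.15 and kin11 by 0.68 ± 0.093. Lower was the D-type cyclin gene cycD2, at 393, 393 and 402 in ae wx, against 1166, 1004 and 1402 in B73 (−1.54 ± 0.17). Another lower gene was cenH3, the centromeric histone H3, at 223, 189 and 210.4 in ae wx, against 240.0, 367 and 432 in B73 (−0.66 ± 0.18). The origin recognition genes orc1, orc3 and orc4 were not called (0.046 ± 0.083, 0.048 ± 0.082 and −0.23 ± 0.12). The sh1 line read 5062 ± 107 for his2b5 and 2299 ± 117 for pcna2 (SD). There ae wx minus sh1 was −0.13 ± 0.42 and −0.58 ± 0.32, not called. These standard errors also hold the spread of the B73 arrays, so the lack of a call does not show equal levels. For pcna2 the ae wx arrays (1499 to 1585) lay below the sh1 mean.

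Chromatin genes leaned the other way, with 21 lower, 10 higher and 31 not called of 62, and a median of −0.15. Among all named genes 24.8% were lower. The lower count was 16 with an array weight per line, 15 or 16 without any 1 ae wx array, and 29 without B73 replicate 3. With the spike scaling the counts were 40 higher and 3 lower. The HD2-type histone deacetylase gene hdt103 had the largest negative difference, at 2243, 2394 and 2958 in ae wx, against 7101, 6645 and 6061 in B73 (−1.38 ± 0.11, adjusted p = 3.91e-06). The histone acetyltransferase gene hac106 was lower too (183, 166 and 174 in ae wx and 377, 321 and 297 in B73, −0.86 ± 0.094). So was the bromodomain gene gte102 (−0.75 ± 0.11). The gene nfc102, of a WD-repeat histone-binding protein, read 2087, 2003 and 1956 in ae wx and 3885, 3237 and 3318 in B73 (−0.78 ± 0.088). No array of ae wx reached B73 for these. Polycomb-type genes, which keep target genes silent, included mez1, which was lower (542, 712 and 547 in ae wx and 1097, 1041 and 843 in B73, −0.71 ± 0.15). Also lower were fie1 (−0.40 ± 0.089, and 0.15 with the spike scaling) and vef101 (−0.50 ± 0.087, and 0.050 with the spike scaling). Their relatives mez2 (−0.24 ± 0.14) and fie2 (0.13 ± 0.083) were not called. Methyl-CpG-binding genes split, with mbd109 lower (199, 194 and 207 in ae wx and 432, 382 and 335 in B73, −0.88 ± 0.10). The gene mbd105 was higher (1531, 1583 and 1684 in ae wx and 540.3, 579 and 479 in B73, 1.56 ± 0.10). The higher group also held the DNA methyltransferase gene met5 (323, 353 and 363 in ae wx and 143, 128 and 237 in B73, 1.01 ± 0.18). The high-mobility-group (HMG) gene nfd101 read 1813, 1701 and 1808 in ae wx and 207, 342 and 1124 in B73 (1.99 ± 0.46). The related nfd106 read 370.2, 335 and 326 in ae wx and 69.2, 89.2 and 226 in B73 (1.47 ± 0.31). For the HMG genes B73 replicate 3 again stood between the other B73 arrays and ae wx.

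**Figure D4:**
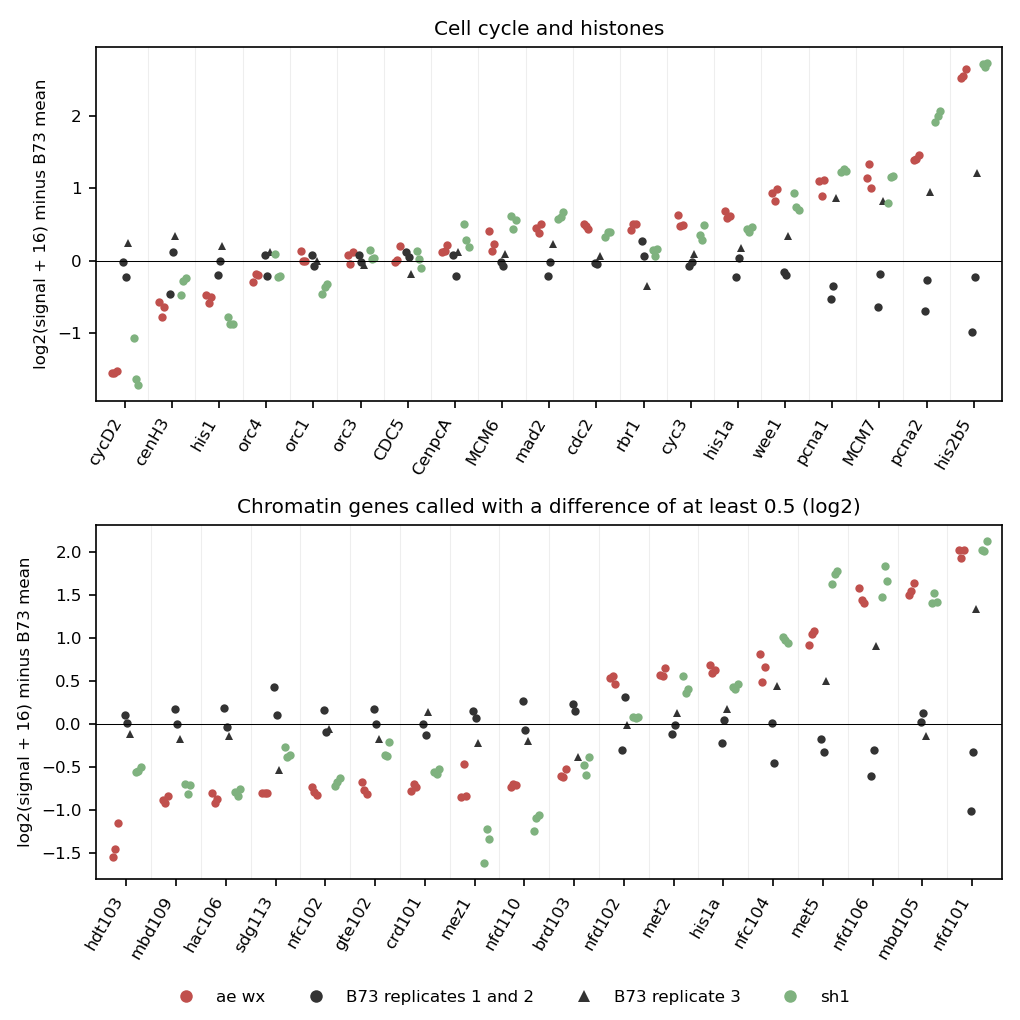
Every tested cell cycle and histone gene (top) and the chromatin genes called with a difference of at least 0.5 (bottom) on every array, as log2(signal + 16) minus the B73 mean, with ae wx left, B73 in the middle (replicate 3 as a triangle) and sh1 right. The triangles of pcna1, MCM7, pcna2, his2b5, nfd106 and nfd101 lie between the other B73 arrays and ae wx, whereas the lower chromatin genes from hdt103 to crd101 are separated from every B73 array.

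Transcription factors differed gene by gene (10 higher and 14 lower of 53 factors, 34 higher and 5 lower with the spike scaling). Homeobox genes of the knotted type were lower. The gene lg3 read 145, 163 and 172 in ae wx, against 540.0, 429 and 315 in B73 (−1.31 ± 0.17). The gene knox7 read 264, 286 and 282 in ae wx, against 659, 604 and 579.7 in B73 (−1.10 ± 0.080), and the homeobox gene hox1a was lower (−0.93 ± 0.086). The growth-regulating factors that were called differed in direction. GRF5 read 67.4, 82.8 and 77.0 in ae wx, against 314, 555 and 274 in B73 (−2.05 ± 0.21), and GRF4 was lower as well (−1.04 ± 0.24). GRF14 was higher, at 269, 232 and 248 in ae wx, against 111, 129 and 127 in B73 (0.94 ± 0.10). MADS-box genes did likewise. The gene m26 was higher, at 1274, 1316 and 1212 in ae wx, against 165, 161 and 206 in B73 (2.74 ± 0.12, adjusted p = 5.86e-08). Silky1 was higher, at 1388, 1185 and 1444 in ae wx, against 476, 448 and 627 in B73 (1.36 ± 0.13). The gene m20 was lower, at 159, 126 and 192 in ae wx, against 963, 974 and 588 in B73 (−2.27 ± 0.20). The GRAS-family gene Scl1 was lower, at 2045, 1905 and 2173 in ae wx, against 9756, 8756 and 6080.1 in B73 (−1.97 ± 0.19). The bZIP gene obf3.2 was higher, at 568, 705 and 593 in ae wx, against 249, 246 and 245 in B73 (1.28 ± 0.092).

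For auxin, the gene of synthesis and the gene of conjugation differed in opposite directions. The flavin monooxygenase gene yuc, of the YUCCA type that makes auxin, was 6.87-fold lower (546, 793 and 841 in ae wx, against 5614, 5334 and 4171 in B73, −2.78 ± 0.18, adjusted p = 9.92e-07). The gene iaglu, which joins auxin to glucose, was 2.61-fold higher (1925, 1835 and 1877 in ae wx, against 716, 646 and 777 in B73, 1.38 ± 0.10, adjusted p = 2.38e-06). The sh1 line was low in yuc as well (875 ± 94.3, SD). For gibberellin, an1, which makes the ent-copalyl diphosphate precursor, was higher, at 619, 752 and 486 in ae wx, against 242, 179 and 166 in B73 (1.58 ± 0.17). The gibberellin oxidase gene GA20 was lower, at 120.2, 100.4 and 110.1 in ae wx, against 192, 179 and 209.9 in B73 (−0.73 ± 0.090). The ACC oxidase gene acco20, the last step to ethylene, was lower (393, 276 and 301 in ae wx and 623, 674 and 528 in B73, −0.89 ± 0.14). The gene ciszog1, a cytokinin glucosyltransferase, was higher (199.6, 219 and 209.9 in ae wx and 109, 117 and 144 in B73, 0.70 ± 0.10). In the jasmonate branch the single gene aos1, allene oxide synthase, was higher, at 893, 753 and 839.8 in ae wx, against 141, 133 and 164 in B73 (2.38 ± 0.10, adjusted p = 6.51e-08). It does not stand for the branch, since aoc1 had 1 of its 2 probe sets called lower and opr8 had 1 of 2 called higher. Of 22 hormone genes tested 5 were higher, 5 lower and 12 not called (14 higher and 1 lower with the spike scaling), with 3 lower without B73 replicate 1 and 2 without B73 replicate 2.

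Genes of sulfur and methionine metabolism differed in both directions. In the S-methylmethionine cycle MMT1, the methionine S-methyltransferase that makes S-methylmethionine, read 335, 348 and 307 in ae wx, against 37.6, 51.4 and 43.2 in B73, with 1 B73 array above the controls. The gene hmt4, of a homocysteine S-methyltransferase that turns it back to methionine, read 31.2, 32.4 and 37.3 in ae wx, against 1281, 1208 and 541 in B73, with no ae wx array above them. Upstream, akh2, a bifunctional aspartate kinase, was higher, at 1109, 1104 and 1112 in ae wx, against 409.7, 344 and 383 in B73 (1.51 ± 0.12, adjusted p = 3.94e-06). Also higher were AKHSDH1 (0.60 ± 0.12) and the serine acetyltransferase gene sat3 of cysteine synthesis (612, 616 and 623 in ae wx and 362, 429 and 427 in B73, 0.59 ± 0.089). The sulfite reductase gene sir was higher with its brightest probe set (2385, 2449 and 2264 in ae wx and 1215, 1180.0 and 1575 in B73, 0.84 ± 0.13). It was lower with another (250.4, 237 and 376 in ae wx and 598, 687 and 1146 in B73, −1.42 ± 0.25). Cystathionine gamma-synthase, cgs1, was lower (−0.54 ± 0.14, and 0.013 with the spike scaling). The lysine-degrading gene lkrsdh1 read 907, 1077 and 892 in ae wx and 4232, 3657 and 901 in B73 (−1.32 ± 0.46). Its call ended without any 1 ae wx array or without B73 replicate 1 or 2, and without B73 replicate 3 it was −2.02. Of 21 amino acid, nitrogen and sulfur genes 6 were higher and 5 lower (15 higher and 1 lower with the spike scaling). There were 3 lower without B73 replicate 1 or 2 or without ae wx replicate 1 or 2.

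Among redox genes, 3 aldehyde dehydrogenase genes were lower and both h-type thioredoxin genes named here higher, while superoxide dismutase genes differed in direction. The aldehyde dehydrogenase gene rf2 read 386, 364 and 415 in ae wx, against 1610.1, 1363 and 976 in B73 (−1.69 ± 0.18), and aldh2 was lower too (−0.77 ± 0.086). The gene rf2c read 40.4, 37.7 and 34.1 in ae wx, against 148, 159 and 148 in B73, with no ae wx array above the controls. The superoxide dismutase gene Sod4A read 121, 139 and 137 in ae wx, against 693, 839 and 695 in B73 (−2.35 ± 0.11, adjusted p = 1.04e-07). The gene sod3 was higher by 0.33 ± 0.082. The catalase gene CAT3 was lower, at 132, 112 and 131 in ae wx, against 355, 388 and 236 in B73 (−1.26 ± 0.16). The h-type thioredoxin gene trh2 was higher, at 4388, 4601 and 4922 in ae wx, against 1703, 2439.6 and 1434 in B73 (1.35 ± 0.16). Likewise trxh1 was higher, at 5039.8, 4769.8 and 4881 in ae wx, against 1792, 3029 and 3426 in B73 (0.88 ± 0.19). Of 18 redox genes 5 were higher and 6 lower (9 higher and 4 lower with the spike scaling).

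Single genes of the flavonoid, tocopherol and inositol pathways were much higher in ae wx, and carotenoid and lignin genes differed in direction. The flavanone 3-hydroxylase gene f3h of the flavonoid pathway read 1134, 1131 and 1127 in ae wx, against 64.2, 61.8 and 82.5 in B73 (3.75 ± 0.17, adjusted p = 1e-07), and a2, an anthocyanin synthesis gene, was higher by 0.50 ± 0.10. Among isoprenoid genes 6 of 10 were higher and 3 lower. VTE5, a phytol kinase that feeds tocopherol synthesis, was 2.97-fold higher (3974, 4350.0 and 4046 in ae wx, against 1283, 1385 and 1474 in B73, 1.57 ± 0.085, adjusted p = 3.33e-07). The gene pds1, phytoene desaturase of carotenoid synthesis, was higher, at 1238, 1611 and 1149.7 in ae wx, against 767, 653 and 589.8 in B73 (0.97 ± 0.14). The next desaturase of that route, vp9 (zeta-carotene desaturase), was lower, at 143, 157 and 161 in ae wx, against 280.1, 255 and 186 in B73 (−0.58 ± 0.14). The myo-inositol phosphate synthase gene INO1, at the head of phytate synthesis, was higher, at 1549, 1433 and 1455 in ae wx, against 405, 549 and 685 in B73 (1.44 ± 0.16), and the inositol phosphate kinase gene lpa2 was lower (−0.55 ± 0.13, and 0.00027 with the spike scaling). The benzoxazinoid gene bx6 was higher, at 1442, 1366 and 1622 in ae wx, against 314, 410.0 and 381 in B73 (1.96 ± 0.16). The lignin-pathway gene cncr1, a cinnamoyl-CoA reductase, was higher, at 1273, 1188 and 1117 in ae wx, against 376, 344 and 273 in B73 (1.81 ± 0.12). The gene bm1, a cinnamyl alcohol dehydrogenase that acts after it, was lower, at 256, 226 and 230.1 in ae wx, against 478, 393 and 489 in B73 (−0.89 ± 0.16). In the cell wall list the hydroxyproline-rich glycoprotein gene HRGP stood out at 75.6, 54.4 and 51.1 in ae wx, against 3996, 3568 and 2341 in B73 (−5.42 ± 0.20). However, 20 of 27 members were not called, 2 were higher and 5 lower (19 higher and 2 lower with the spike scaling). The counts were 1 higher and 3 lower without B73 replicate 1 or without B73 replicate 2, and 2 higher and 8 lower without B73 replicate 3.

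In protein turnover, a cysteine protease and the inhibitors of such proteases were higher together. The cysteine protease gene ccp2 read 1584, 1526 and 1802 in ae wx, against 284, 295 and 311 in B73 (2.40 ± 0.091, adjusted p = 2.4e-08). The cystatin genes cpi2, psei1 and cc7, inhibitors of cysteine proteases, were higher by 0.96 ± 0.13, 0.67 ± 0.13 and 0.71 ± 0.087, with cpi2 at 2556, 2632 and 2572 in ae wx, against 1069, 1481 and 1451 in B73. Another cysteine protease gene, see2b, was lower, at 66.7, 61.5 and 70.2 in ae wx, against 167, 156 and 127 in B73 (−1.01 ± 0.11). The sh1 line had ccp2 at 1647 ± 25.5 but cpi2 at 320.1 ± 22.2 (SD). Signalling genes were 14 higher and 9 lower of 36 (26 higher and 1 lower with the spike scaling). The calmodulin gene read 2874, 2935 and 2917 in ae wx, against 494, 731 and 1242 in B73 (1.90 ± 0.26). In transport, ZCAX2, a cation exchanger, was higher (1003, 1126 and 1060.5 in ae wx and 518, 444 and 484 in B73, 1.12 ± 0.089). The triose phosphate translocator gene TPT was higher (189, 191 and 189 in ae wx and 98.8, 102 and 120.4 in B73, 0.75 ± 0.10). The plastid glucose translocator gene glct1 was lower with its brightest probe set (2514, 2605 and 2502 in ae wx and 5116, 4366 and 3969 in B73, −0.81 ± 0.10), as with 4 of its 5 in all.

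Other named genes had large differences outside these pathways. CAF1 read 773, 788 and 774 in ae wx, against 83.6, 77.2 and 55.6 in B73 (3.19 ± 0.12, adjusted p = 2.13e-08), and nthr3 read 729.8, 630.0 and 600.0 in ae wx, against 57.5, 60.5 and 84.0 in B73 (3.01 ± 0.12). The gene lls1, pheophorbide a oxygenase of chlorophyll breakdown, was higher, at 1003, 1099 and 1058 in ae wx, against 343, 267 and 306 in B73 (1.74 ± 0.19). PEAMT, a phosphoethanolamine methyltransferase of choline synthesis, was higher, at 1384, 1149 and 1251 in ae wx, against 387, 412 and 379 in B73 (1.64 ± 0.091). Also higher were lem1 (2.16 ± 0.12), fdh1 (1.62 ± 0.094) and cfm6 (1.61 ± 0.15). The gene aprt1 was higher with 1 of its 2 probe sets (1.95 ± 0.21) and not called with the other (0.10 ± 0.10). At the other end mtl2 read 233, 199 and 215 in ae wx, against 3488, 4959.9 and 1782 in B73 (−3.77 ± 0.31, adjusted p = 6.8e-06), and GP read 70.3, 75.0 and 69.0 in ae wx, against 399, 553 and 589 in B73 (−2.58 ± 0.13). The acetylcholinesterase gene ache1 was lower, at 95.4, 84.4 and 77.6 in ae wx, against 541, 445 and 726 in B73 (−2.50 ± 0.15), and nitrilase2 was lower as well (−2.37 ± 0.11). LPE1 (−2.03 ± 0.10) and the nucleoredoxin gene nrx1 (−1.68 ± 0.093) were lower. The photosystem I subunit gene psah1 was lower, averaging 76.6 ± 3.81 in ae wx and 461 ± 319.6 in B73 (SD, −2.01 ± 0.52). B73 replicate 3 stood nearer to ae wx than the other B73 arrays did.

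Genes of translation, the cytoskeleton and heat shock differed in both directions. Of 19 ribosomal protein genes 6 were higher and 2 lower (16 higher and 0 lower with the spike scaling, 5 higher and 5 lower without B73 replicate 1), with rpl39 (1.28 ± 0.29) and RPS10 (1.27 ± 0.15) the widest. Of 13 translation factor genes 4 were higher and 5 lower (8 higher and 0 lower with the spike scaling, 2 higher and 5 lower without ae wx replicate 1). Of 23 cytoskeleton genes tested 9 were higher and 5 lower (19 higher and 1 lower with the spike scaling). The alpha-tubulin gene TUA1 was lower, at 2848, 3016 and 2864 in ae wx, against 5658, 4992 and 5431 in B73 (−0.88 ± 0.070). The beta-tubulin genes tub3 (−0.67 ± 0.11) and tub4 (−0.49 ± 0.10, and 0.063 with the spike scaling) were lower as well. Other tubulin genes went the other way, with tubg1 called higher by each of its 2 probe sets and tub5 by 1 of 2. The profilin gene prf5 was higher (0.57 ± 0.10). Of 10 heat shock genes 1 was higher and 2 lower (5 higher and 1 lower with the spike scaling). There was 1 lower without B73 replicate 1 or 3, without any 1 ae wx array or with an array weight per line, and there were 3 without sh1 replicate 1 or with the 6 arrays compared alone.

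Where a gene had several probe sets, they did not always give the same direction. Of 135 such genes, 50 had every probe set called in the same direction, 11 had calls in both directions and 19 had differences more than 1 apart (log2). The widest gap was in his1, a linker histone gene. Its brightest probe set read 707, 656 and 692 in ae wx and 859.6, 982 and 1144 in B73 (−0.52 ± 0.11, and 0.029 with the spike scaling). Another read 821, 829.9 and 796 in ae wx and 426, 494 and 599 in B73 (0.68 ± 0.13). A further one read 9.1, 11.1 and 9.12 in ae wx and 671, 839 and 1029 in B73, with no ae wx array above the controls. For piip1 the brightest probe set was lower (1843, 1959 and 1776 in ae wx and 2909.5, 2526 and 2021 in B73, −0.40 ± 0.12). It gave 0.15 with the spike scaling and its call ended without B73 replicate 2, ae wx replicate 1 or ae wx replicate 3. Another was higher (1728, 1684 and 1309 in ae wx and 103, 127 and 128 in B73, 3.55 ± 0.18). The beta-tubulin gene tub6 gave 0.36 ± 0.074 and −2.34 ± 0.079, with the second at 398, 404 and 383 in ae wx, against 2166, 2002 and 2013 in B73. The elongation factor gene EF1-A gave 0.21 ± 0.065, whose call ended without B73 replicate 2 or ae wx replicate 1, and −2.22 ± 0.19. Whether probes met a sequence difference of the inbreds was not tested.

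Of the tested probe sets, 11470 had no usable gene name, among them 826 of the 909 higher and 609 of the 679 lower by at least 2-fold. Among those above the controls on all 6 arrays, the highest by difference read 5901, 6645 and 5173 in ae wx, against 63.5, 113 and 64.8 in B73 (5.97 ± 0.18). The lowest read 111, 103 and 84.4 in ae wx, against 5146, 7529 and 6637 in B73 (−5.80 ± 0.16). A further 69 probe sets, with or without a name, exceeded the controls on every ae wx array and on no B73 array, and 58 did so on every B73 array and on no ae wx array.

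**Figure D5:**
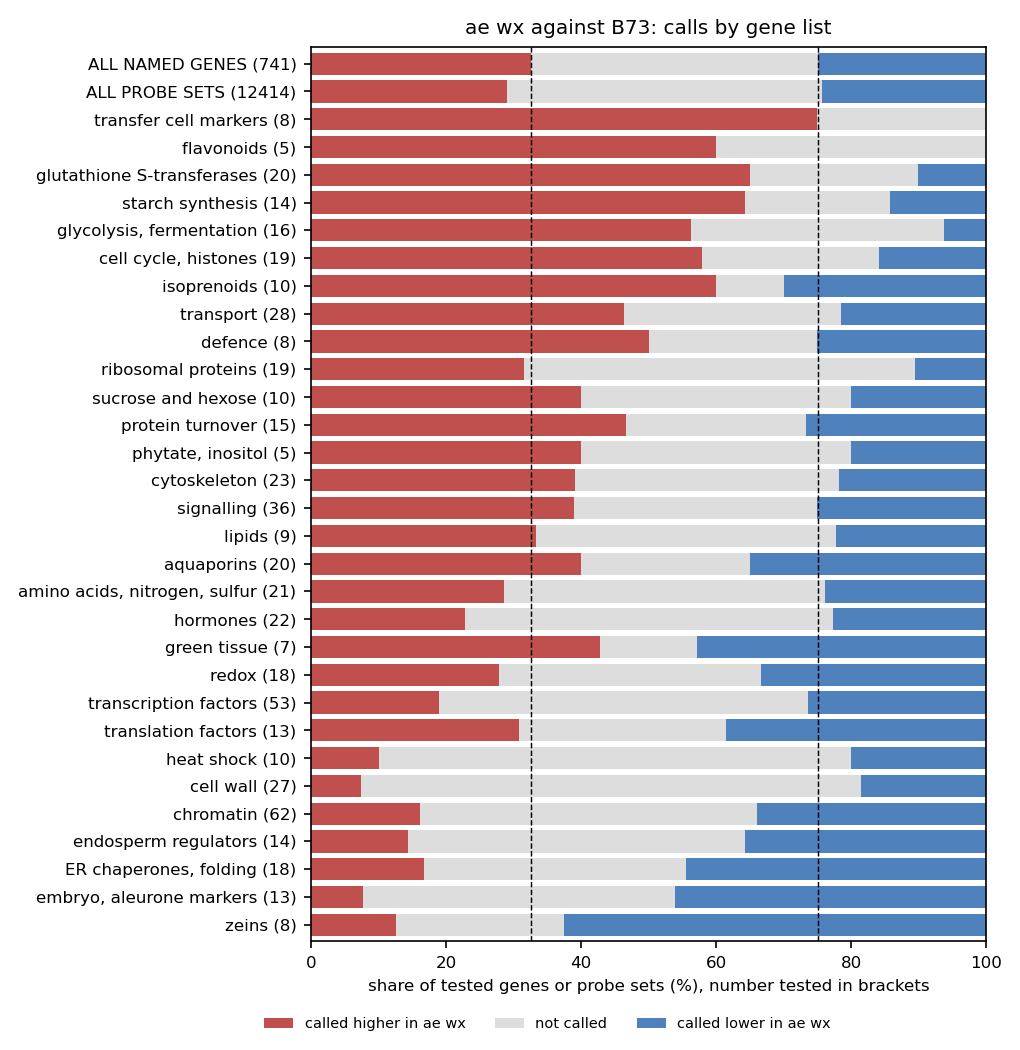
Share of the tested genes of each list called higher, not called and called lower in ae wx, with the number tested in brackets and dashed lines at the shares of all named genes (32.5% higher and 24.8% lower). Transfer cell markers, glutathione S-transferases, starch synthesis and glycolysis lie furthest toward higher among lists of at least 8 genes by the share higher minus the share lower, and zeins, embryo and aleurone markers and ER folding genes furthest toward lower.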

How the data were processed

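Endosperm RNA of ae wx, B73 and sh1 was read on Affymetrix arrays, 3 a line. The authors deposited 1 linear intensity per probe set and array, and the submitters' processing notes name GCOS 1.4 without saying what it did. How probes were summarised and arrays scaled is not given in the sources used here. Values were used as deposited, since 2% trimmed means differed between arrays by 9.72%. Probe sets were kept where their signal reached 20% of the trimmed mean of the array on 3 or more of 9 arrays (12414, with 5207 removed). They were tested as log2(signal + 16) in limma 3.58.1 (R 4.3.3) with 1 mean per line over 9 arrays and a trend on intensity. Two-sided p-values were adjusted by Benjamini and Hochberg's method over all kept probe sets. Every adjusted p is limma's. The fit was tested on simulated data first. The number of arrays and signal near the controls limit the precision.

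A gene was named from the platform annotation, with symbols updated through RefSeq's gene table for assembly Zm-B73-REFERENCE-NAM-5.0 (1377 probe sets matched; 1452 had 1 gene symbol, 1 had several and 16168 none), and 1259 probe sets of 970 genes had a usable name. The kept probe set with the highest mean stood for a gene. A signal counted as above controls when it exceeded the mean of 23 controls with no maize target on its array, and a gene not above them on every array of both lines is given without a fold. Members, gene lists and tests were chosen with earlier results of these data known, and names shared by unlike genes were left out of lists by hand. Genes named were those of the loci and the 25 highest and 25 lowest called genes with arrays that do not overlap. Added to these were up to 8 called members of each list and all listed zeins and tonoplast aquaporins. The 6 genes with the widest probe sets called in opposite directions were named too. Members that were not called are given for contrast. Some genes the rule took are given by counts only. Alternatives changed the pseudocount, the filter, the scaling, the arrays in the fit, weights, the trend, the replicate block and the value of a gene. Python 3.11.15 with matplotlib 3.10.9 made the plots.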

Additional observations from a re-analysis of the deposited data

How the results depend on the processing

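Counts of calls kept their size within 1.5 times under every alternative except the spike scaling, which gave 9494 calls in all, 8710 higher and 784 lower, and 2610 and 315 at 2-fold or more. Which direction had more calls turned with quantile normalization (3276 higher and 3377 lower, 49.2% higher, against 54.4% as deposited). Leaving out 1 array gave 5368 to 7273 calls, 2811 to 3976 higher and 2481 to 3297 lower, 786 to 1013 and 514 to 681 at 2-fold or more, and 343 to 469 of the named genes. With a weight per line there were 5737 calls. Replicate numbers did not pair the samples (correlations of deviations −0.20, −0.027 and −0.024 for replicates 1, 2 and 3), and with the replicate block there were 6205 calls. Of the 176 genes given with values, the mean of all kept probe sets ended the call of 1 and turned 4. The sign turned with the mean of all probe sets for EF1-A −0.87, piip1 1.81, sir −0.24 and tub6 −0.65 (log2). The sign turned with the spike scaling for azs22-20 0.32, cgs1 0.013, fie1 0.15, gz50 0.43, his1 0.029, lpa2 0.00027, ole1 0.22, pbf1 0.41, pdi 0.12, piip1 0.15, sh1 0.42, tip5 0.51, tub4 0.063 and vef101 0.050 (log2). The cause of these changes was not tested. Depth cannot be counted on arrays, and differences of genes near the controls are limited by signal over background.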

Other observations

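The sets of controls differed between the lines by kind. The log2 difference ae wx minus B73 was −0.55 for the 36 polyadenylated spikes, −0.18 for the 27 hybridization spikes and −0.039 for the 23 controls with no maize target.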
